A study of Mus musculus with 6 samples.

Results

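Eph receptors are the largest family of receptor tyrosine kinases, and their ligands, the ephrins, are anchored in the membrane of neighbouring cells. Contact between a receptor and an ephrin signals into both cells and often makes them repel each other. In the normal intestine, EphB2 and EphB3 are Wnt targets of the crypt, ephrin-B1 and ephrin-B2 are highest on differentiated cells nearer the lumen, and the opposed gradients help to keep crypt and surface cells apart. Loss of EphB receptors is a known feature of advanced colorectal tumours.

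The 10 genes described here are 8 Eph receptors (Ephb2, Ephb3, Ephb4, Ephb6, Epha1, Epha2, Epha4 and Epha7) and 2 ephrin-B ligands (Efnb1 and Efnb2). They were taken by symbol from a table of 23224 genes, and all 10 passed the filter on low counts, among 12137 genes tested. The table holds RNA sequencing of mouse AKP organoids grown from tumours that had formed in vivo. Both groups carry the AKP background, whose alleles the labels do not spell out. There were 3 libraries of the genotype Control and 3 of the genotype SOX17KO, in which Sox17, an endoderm transcription factor gene, was targeted with CRISPR-Cas9. Nothing in the labels says if replicates were independent cultures or clones, and the p-values therefore reflect only the spread between these libraries, which may be technical. The comparison addressed what SOX17 does in colon cancer.

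Sox17 RNA did not separate the groups: the Control libraries read 34.4, 34.5 and 34.2 CPM (counts scaled to a common library size after TMM adjustment), against 33.8, 41.9 and 45.1 CPM in the libraries labelled SOX17KO. It therefore does not check the labels. Library totals ran from 18290912 to 27503254 expected counts. SOX17KO replicate 1 stood apart: its log2 CPM correlated at 0.960 and 0.963 with the other two libraries of that label, against 0.986 between those, so each result that rests on it is also given without it. Krt19, a keratin gene, was the most abundant of 8 defining markers of intestinal epithelium, with means of 5992 ± 269 CPM for Control and 4714 ± 1083 CPM for SOX17KO (SD, n = 3). The 8 markers summed to 13000 to 13800 CPM in a Control library and to 9630, 13800 and 13800 CPM in SOX17KO replicates 1, 2 and 3. The keratin genes Krt8, Krt18 and Krt19 made up most of these sums. Krt19 read 3467, 5417 and 5258 CPM in SOX17KO replicates 1, 2 and 3. In the same order Epcam had 17757, 15373 and 12183 counts, and Cldn7 7590, 7344 and 5292. Unlike CPM, these counts were not scaled to the library totals, which were 24765258, 23411787 and 18290912, so they do not rank the libraries. Among the 8 markers Cdx1, a gut transcription factor gene, was too low to test. It had 0 counts in each Control library and 23, 0 and 1 in SOX17KO replicates 1, 2 and 3. Of the 7 tested, Cldn7 and Epcam, named after their values were seen, were called higher (log2 fold change 0.43 and 0.34; edgeR adjusted p = 0.0223 and 0.0343), and neither was without any one Control library (edgeR adjusted p from 0.107 to 0.207).

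In the libraries labelled SOX17KO, Ephb4 was higher and Ephb6 lower than in Control, and the other 8 genes were not called. The call rule was an adjusted p below 0.05 in edgeR's quasi-likelihood test, with Benjamini-Hochberg adjustment over all 12137 genes. Of all genes tested 6.87% were called by it, 3.67% higher and 3.2% lower, so 2 of 10 stands beside that background and is not read as particular to the family. The median log2 fold change of the 10 genes was 0.006, against 0.014 over all genes. Libraries of the 2 groups did not overlap for 3 of the 10 genes, Ephb4, Epha7 and Ephb6, as for 28.2% of all genes. The share of all genes called was 10.7% with DESeq2 and 6.25% with limma-voom. It was 1.6%, 1.56% and 1.64% when Control replicate 1, 2 or 3 was left out and 22.2%, 6.16% and 5.49% when SOX17KO replicate 1, 2 or 3 was.

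**Figure D1:**
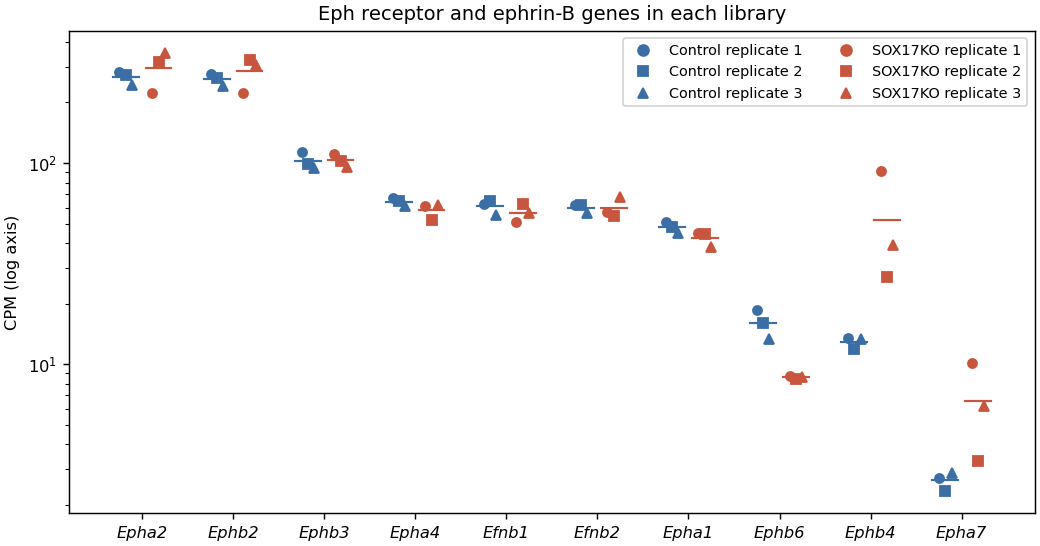
Level of each of the 10 genes in CPM on a log axis, 1 symbol per library, blue for Control and red for SOX17KO, with a short line at each group mean. Ephb4 and Epha7 lie higher in all 3 SOX17KO libraries and Ephb6 lower, while in Ephb2 and Epha2 SOX17KO replicate 1 lies below every Control library and replicates 2 and 3 above them.

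Ephb4, the receptor that pairs mainly with ephrin-B2 and is best known from veins, had the largest log2 fold change of the 10 genes. Control replicates 1, 2 and 3 read 13.5, 11.96 and 13.3 CPM, against 91.0, 26.99 and 39.0 CPM in replicates 1, 2 and 3 labelled SOX17KO. All 3 SOX17KO libraries lay above all 3 Control libraries, and replicate 1 was the highest, at 7.05 times the Control mean beside 2.09 and 3.02 times for replicates 2 and 3. The means were 12.9 ± 0.832 and 52.3 ± 34.0 CPM (SD, n = 3), and the log2 fold change was 2.02 ± 0.43 (SE; 95% interval 1.01 to 3.03; edgeR adjusted p = 0.0369). Leaving out SOX17KO replicate 1 gave 1.34, and the call held (edgeR adjusted p = 0.000146). The call was lost without any one Control library (edgeR adjusted p from 0.159 to 0.163) or SOX17KO replicate 3 (0.0576), and with limma-voom (0.0715).

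Ephb4 lies on chromosome 5 among genes that moved the opposite way. Each of its 20 nearest tested neighbours, 10 on either side in RefSeq order, had a negative log2 fold change, and 14 of them were called lower; the median was -1.19. Leaving out 1 library gave between 10 and 17 of them called lower and 0 higher. For Slc12a9, the gene before it, the means were 36.6 ± 0.856 CPM for Control and 17.95 ± 3.18 CPM for SOX17KO (log2 fold change -1.03; edgeR adjusted p = 0.00773). For Pop7, the gene after it, they were 34.3 ± 2.35 and 15.1 ± 1.73 CPM (log2 fold change -1.18; edgeR adjusted p = 0.00233). The neighbours' median difference from the Control mean, in log2 CPM, was -1.27, -1.04 and -1.24 for SOX17KO replicates 1, 2 and 3, while that of Ephb4 was 2.81, 1.06 and 1.59. The neighbours were thus lower by a like amount in all 3 libraries, and the level of Ephb4 varied among them. No other gene annotated in RefSeq overlaps Ephb4.

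Ephb6, whose kinase domain is known to be catalytically inactive, fell. Control replicates 1, 2 and 3 read 18.5, 16.0 and 13.3 CPM, and the SOX17KO replicates 8.78, 8.47 and 8.65 CPM. The SOX17KO libraries sat close together below every Control library, and replicate 1 did not stand apart for this gene. The means were 15.9 ± 2.63 and 8.63 ± 0.154 CPM (SD, n = 3), and the log2 fold change was -0.88 ± 0.15 (SE; 95% interval -1.23 to -0.54; edgeR adjusted p = 0.0152). Leaving out SOX17KO replicate 1 gave -0.90 (edgeR adjusted p = 0.00221). The call was lost without Control replicate 1 or 2 (edgeR adjusted p = 0.0832 and 0.0898), and it held with limma-voom (0.0239).

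The genes around Ephb6 on chromosome 6 showed no common change of that kind. Of its 20 nearest tested neighbours 0 were called by edgeR or limma-voom and 1 higher by DESeq2, with 3 at an unadjusted edgeR p below 0.05; 8 had a negative log2 fold change, and the median was 0.048; all 20 lay above Ephb6. Without SOX17KO replicate 1 their median was -0.11, with 1 called higher and 2 lower, and without SOX17KO replicate 2 it was 0.15, with 2 called higher. Over the 586 tested genes of chromosome 6 the median log2 fold change was -0.24. The genes directly beside it were Mgam, with means of 7.94 ± 0.629 and 14.7 ± 10.7 CPM for Control and SOX17KO (edgeR adjusted p = 0.407), and Gstk1, with 7.74 ± 0.606 and 5.96 ± 0.0971 CPM (edgeR adjusted p = 0.173). Epha1 is among those 20 neighbours.

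**Figure D2:**
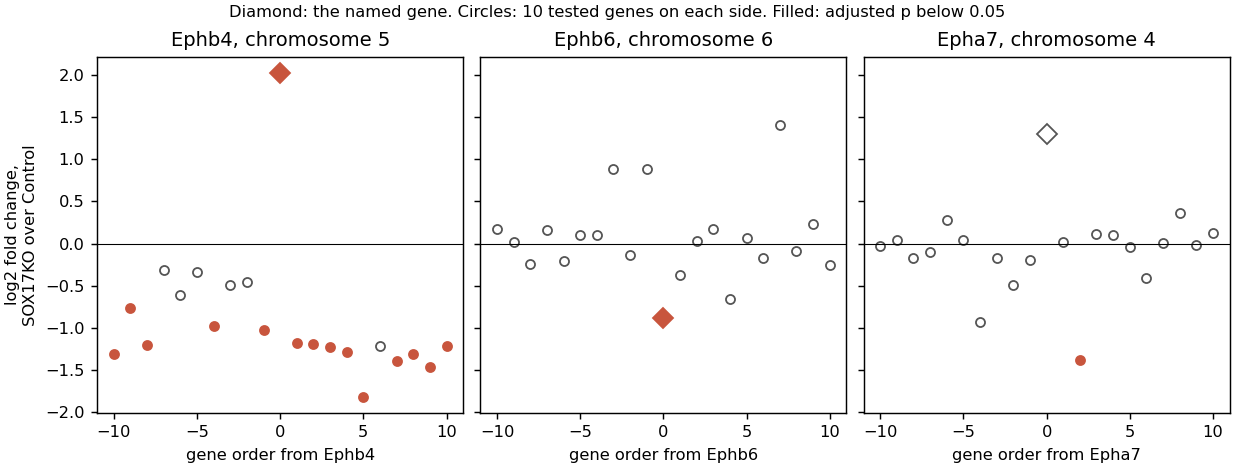
Log2 fold change of Ephb4, Ephb6 and Epha7 (diamonds) and of the 10 tested genes on each side (circles) against gene order on the chromosome, filled where the adjusted p is below 0.05. Ephb4 stands at 2.02 above 20 neighbours that are all below 0, whereas the neighbours of Ephb6 and Epha7 have medians of 0.048 and -0.024.

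The stretches before the transcription start of Ephb4 and Ephb6 are shown because these 2 genes moved in opposite directions. Each is the 250 bases before the start, taken from the RefSeq promoters of build GRCm38.p6, while the counts were made on mm9. Ephb4 is at chr5:137349859-137350108 and Ephb6 at chr6:41605261-41605510, both on the plus strand. Capitals mark GC boxes (GGGCGG or its reverse CCGCCC) and CCAAT boxes (CCAAT or ATTGG), common elements of promoters.
Ephb4: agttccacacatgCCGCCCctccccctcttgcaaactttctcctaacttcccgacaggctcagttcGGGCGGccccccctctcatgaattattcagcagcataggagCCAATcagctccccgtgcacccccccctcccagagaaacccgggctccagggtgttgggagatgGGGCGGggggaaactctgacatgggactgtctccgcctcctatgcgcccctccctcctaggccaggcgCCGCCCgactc
Ephb6: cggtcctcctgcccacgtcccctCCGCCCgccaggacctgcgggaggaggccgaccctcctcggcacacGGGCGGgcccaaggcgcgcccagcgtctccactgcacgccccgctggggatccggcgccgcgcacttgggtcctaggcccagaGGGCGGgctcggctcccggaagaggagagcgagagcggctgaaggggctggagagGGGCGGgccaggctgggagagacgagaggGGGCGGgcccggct
The Ephb4 window holds 4 GC boxes and 1 CCAAT box at 64.0% G and C, and the Ephb6 window 5 GC boxes and no CCAAT box at 76.8%. All 10 genes had a promoter entry. The 10 genes were counted once each if any of their windows held the letters (Epha7 has 2 windows), whereas all promoters were counted singly. A GC box was in the windows of 8 genes, against 32.7% of all 32851 promoters, and a CCAAT box in those of 6, against 33.8%. The windows of the 10 genes held 54.4% to 76.8% G and C, and these shares were not adjusted for that. The core letters of SOX sites (ATTGT or ACAAT) were in the windows of 0 genes, against 27.7% of all promoters. The core of TCF sites (CTTTGA or TCAAAG) was in that of Epha2 alone, against 13.8%. These counts, on both strands, say only which letters lie in these windows.

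Epha7, a receptor for A-type ephrins, was the scarcest of the 10 genes. Control replicates 1, 2 and 3 read 2.71, 2.34 and 2.89 CPM, and the SOX17KO replicates 10.2, 3.29 and 6.21 CPM. The groups did not overlap, and the SOX17KO libraries fell in the same order as for Ephb4, replicate 1 highest and replicate 2 lowest. Of 452.8 expected counts over SOX17KO, beside 200 over Control, 265.99 were in replicate 1. The log2 fold change of 1.31 ± 0.39 (SE; 95% interval 0.38 to 2.23) did not pass (edgeR adjusted p = 0.107). Epha7 was called by DESeq2 (adjusted p = 0.0195) and by edgeR without SOX17KO replicate 2 (1.63; adjusted p = 0.0231), whereas leaving out SOX17KO replicate 1 gave 0.82 (edgeR adjusted p = 0.0516). Its 20 nearest tested neighbours on chromosome 4 had a median log2 fold change of -0.024.

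Ephb2 and Ephb3, the receptors of the crypt, were abundant in both groups and were not called. For Ephb2 the Control replicates read 275.7, 265.5 and 242.6 CPM and the SOX17KO replicates 223.0, 325.3 and 308.3 CPM. SOX17KO replicate 1 was thus the lowest of the 6 libraries and replicates 2 and 3 the highest. Over all libraries the log2 fold change was 0.13 ± 0.15 (SE; 95% interval -0.22 to 0.48; edgeR adjusted p = 0.729). Leaving out SOX17KO replicate 1, Ephb2 was called higher at 0.28 (edgeR adjusted p = 0.0271), in a comparison that called 22.2% of all genes. The summed epithelial markers, mostly keratin RNA, were also lowest in SOX17KO replicate 1. The part of these markers in the Ephb2 result was not tested. For Ephb3 the Control replicates read 112.9, 99.2 and 94.3 CPM and the SOX17KO replicates 111.1, 102.4 and 95.8 CPM. These groups overlapped, with a log2 fold change of 0.01 ± 0.10 (SE; 95% interval -0.22 to 0.25; edgeR adjusted p = 0.961) whose sign turned under some alternatives.

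Neither ligand was called. Efnb1, which encodes ephrin-B1, read 62.8, 64.5 and 55.1 CPM in the Control replicates and 50.8, 62.6 and 56.7 CPM in the SOX17KO replicates (log2 fold change -0.10 ± 0.11, SE; 95% interval -0.35 to 0.15; edgeR adjusted p = 0.700). Efnb2, which encodes ephrin-B2, read 61.6, 61.7 and 56.2 CPM in the Control replicates and 57.4, 54.6 and 67.4 CPM in the SOX17KO replicates (log2 fold change -0.0017 ± 0.10, SE; 95% interval -0.24 to 0.24; edgeR adjusted p = 0.997). For both ligands the libraries of the groups overlapped, and none of the 15 alternative analyses called either. Per kilobase of exon the receptor Ephb4 stood below its ligand Efnb2 in Control, at 2.95 ± 0.190 beside 12.5 ± 0.664 CPM. The means for SOX17KO were 11.97 ± 7.78 and 12.5 ± 1.41 CPM per kilobase (SD, n = 3), and Ephb4 exceeded Efnb2 in none but replicate 1, at 20.8 beside 11.98.

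The remaining A-type receptors were not called over all libraries. Epha2, an epithelial receptor whose main partner is ephrin-A1, read 284.0, 273.1 and 245.0 CPM in the Control replicates and 222.3, 318.9 and 351.5 CPM in the SOX17KO replicates. As for Ephb2, SOX17KO replicate 1 was the lowest library and replicates 2 and 3 the highest. The log2 fold change was 0.15 ± 0.17 (SE; 95% interval -0.25 to 0.55; edgeR adjusted p = 0.713), and leaving out SOX17KO replicate 1 it was called higher at 0.32 (edgeR adjusted p = 0.0197). Epha4, which binds ephrins of both types, read 66.7, 64.6 and 61.4 CPM in the Control replicates and 61.3, 52.3 and 62.0 CPM in the SOX17KO replicates (log2 fold change -0.13 ± 0.09, SE; 95% interval -0.35 to 0.08; edgeR adjusted p = 0.501). Epha1 read 51.0, 48.0 and 44.7 CPM in the Control replicates and 44.9, 44.2 and 38.2 CPM in the SOX17KO replicates (log2 fold change -0.17 ± 0.10, SE; 95% interval -0.40 to 0.05; edgeR adjusted p = 0.384). The groups overlapped by 1 SOX17KO library for each of these 2 genes. The annotated span of Epha1 overlaps Zyx and the noncoding gene 2010310C07Rik, and since the strand setting of the counts is not given, reads from the shared stretch cannot be told apart. RefSeq also places 2 noncoding genes over Ephb2 and 1 microRNA gene over Epha4, which are not in the table.

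**Figure D3:**
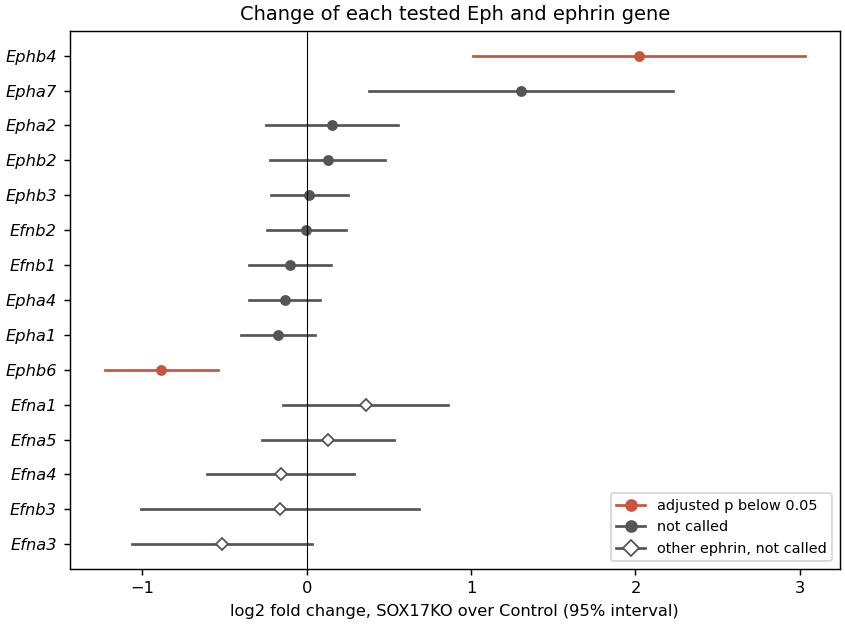
Log2 fold change of SOX17KO over Control with its 95% interval for the 10 genes (circles) and the 5 other tested ephrin genes (diamonds), red where the adjusted p is below 0.05. The intervals of Ephb4 and Ephb6 lie on either side of 0, that of Epha7 lies above 0 without passing the adjusted threshold, and the other 7 of the 10 genes have intervals that include 0, with bounds from -0.40 to 0.55.

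Levels of different genes were compared per kilobase of exon, as CPM divided by the exon length in GENCODE M21. The counts were made on mm9 with an annotation that is not given. The lengths, used above for Ephb4 and Efnb2 too, may therefore differ from those behind the counts. In Control, Epha2 was the highest at 68.3 ± 5.14 CPM per kilobase, followed by Ephb2 at 23.95 ± 1.56, Efnb1 at 18.7 ± 1.53 and Ephb3 at 17.9 ± 1.69 (SD, n = 3). Epha1 at 14.2 ± 0.929, Efnb2 at 12.5 ± 0.664 and Epha4 at 10.15 ± 0.427 CPM per kilobase were intermediate. Ephb6 at 4.24 ± 0.698, Ephb4 at 2.95 ± 0.190 and Epha7 at 0.350 ± 0.0369 CPM per kilobase were the lowest. Of neighbours in that order only Efnb1 and Ephb3 overlapped between the Control libraries, and they changed places with the longest coding transcript as the length. By the SOX17KO means the first and the last gene were the same, and Ephb4 was at rank 7, against rank 9 in Control. Without SOX17KO replicate 1 it was at rank 8, with a mean of 7.55 CPM per kilobase beside 9.03 for Epha4.

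Because Ephb4 marks vein endothelium, the markers of endothelium are given beside it. The 9 endothelial markers summed to 5.55 to 7.09 CPM in a Control library and to 5.88, 8.16 and 7.15 CPM in SOX17KO replicates 1, 2 and 3. Their part in the Ephb4 result was not tested. The most abundant was Egfl7, with means of 2.75 ± 0.469 and 3.16 ± 1.13 CPM for Control and SOX17KO. Emcn and Cldn5 had 0 counts in every library, and Pecam1, named after its values were seen, had 0 counts over Control and 1 over SOX17KO. Tek, an endothelial receptor gene also named after its values were seen and too low to test, had 2, 1 and 2 counts in the Control replicates and 22, 0 and 3 in the SOX17KO replicates, highest in replicate 1 as Ephb4 was. Other endothelial markers went the other way in that library. Cdh5, also named after its values were seen, had 6, 2 and 4 counts in the Control replicates and 0, 2 and 2 in the SOX17KO replicates. Egfl7 was lowest of all libraries in SOX17KO replicate 1, at 2.10 CPM. Fibroblast markers, all too low to test, summed to 0.0724 to 0.144 CPM in a Control library and to 0.763, 0.571 and 0.277 CPM in SOX17KO replicates 1, 2 and 3, so that the groups did not overlap and replicate 1 was the highest. Their part in the results was not tested. In any library, leukocyte markers summed to at most 14.1 CPM and neural and glial markers to at most 5.04 CPM; the most abundant members of the 3 lists were Acta2, Cd68 and Tubb3. Col3a1, Dcn and Lum of the fibroblast list, Cd3e of the leukocyte list and Sox10 and Elavl4 of the neural list had 0 counts in every library. Of these lists only Ret, a neural receptor gene named after its values were seen, was called (log2 fold change 1.71; edgeR adjusted p = 0.0139), and not without any one Control library (edgeR adjusted p from 0.0815 to 0.0853). Bulk RNA cannot tell fewer cells of a type from less RNA per cell.

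The remaining genes of the family were low or not called over all libraries. The 6 other Eph receptor genes (Epha3, Epha5, Epha6, Epha8, Epha10 and Ephb1) had at most 3 counts in any library and were not tested. Of the 6 other ephrin genes 5 were tested, and 0 were called by edgeR, DESeq2 or limma-voom, with 0 at an unadjusted edgeR p below 0.05. Efna1, which encodes the main ligand of EphA2, read 41.6, 43.5 and 35.8 CPM in the Control replicates and 36.5, 51.3 and 67.5 CPM in the SOX17KO replicates, lowest in replicate 1 of the latter like Epha2. Efna3 read 21.8, 19.4 and 20.2 CPM in the Control replicates and 17.8, 9.17 and 15.96 CPM in the SOX17KO replicates. Efna4 read 25.7, 25.02 and 25.5 CPM in the Control replicates and 30.2, 18.3 and 19.7 CPM in the SOX17KO replicates. The groups did not overlap for Efna3 and overlapped for the other two. Leaving out SOX17KO replicate 1, where 22.2% of all genes were called, edgeR called Efna1 higher (log2 fold change 0.56; adjusted p = 0.00936) and both Efna3 (-0.72; adjusted p = 0.0228) and Efna4 (-0.42; adjusted p = 0.00818) lower.

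Genes that act with the family are read beside the share of all genes called, which was 6.87% over all libraries, 22.2% without SOX17KO replicate 1 and 10.7% with DESeq2. Of 31 tested genes behind activated Eph receptors (adaptors, exchange factors, kinases and GTPases) 1 fell, none rose and 30 were not called, with a median log2 fold change of -0.030; leaving out SOX17KO replicate 1, 4 were called higher and 1 lower, and DESeq2 called 2 higher and 1 lower. These counts lie near or below those shares and are not read as particular to the list. The gene that fell was Rac1, a GTPase of the actin cytoskeleton, with means of 657 ± 6.24 and 453 ± 38.0 CPM for Control and SOX17KO (log2 fold change -0.54 ± 0.09, SE; edgeR adjusted p = 0.0152). Its call was lost without any one Control library (edgeR adjusted p from 0.0869 to 0.103). Rac1 is on chromosome 5 as well, and 19 of its 20 nearest tested neighbours had a negative log2 fold change, with a median of -0.47.

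Of 8 tested genes that act in signalling by ephrin-B into its own cell, 0 were called by edgeR or limma-voom and 1 lower by DESeq2. At an unadjusted edgeR p below 0.05 there were 2, and without SOX17KO replicate 1 edgeR called 1 higher and 1 lower. The gene lower by DESeq2, named after its values were seen, was Ptpn13, a phosphatase gene. The most abundant was Sdcbp, which encodes the PDZ protein syntenin, with means of 344 ± 13.8 and 333 ± 45.4 CPM for Control and SOX17KO. Of 16 proteases, phosphatases and ubiquitin ligases that shed, silence or remove the receptors and ligands 0 were called by edgeR, DESeq2 or limma-voom, with 1 at an unadjusted edgeR p below 0.05; without SOX17KO replicate 1 edgeR called 2 higher. The most abundant was Adam10, a protease that cleaves ephrins, with means of 289 ± 12.04 and 291 ± 60.3 CPM. SOX17KO replicate 1 was the lowest library for Adam10 too, at 223.0 CPM.

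Other genes of the crypt and of the surface are set beside the receptors and ligands; 3.67% of all genes were called higher and 3.2% lower. Of 14 tested Wnt and crypt genes 3 rose, Lgr5, Lef1 and Sp5, and none fell, with a median log2 fold change of 0.24. Without SOX17KO replicate 1 the counts were 5 higher and 2 lower, with DESeq2 4 and 2, and with limma-voom 1 and 0, where 22.2%, 10.7% and 6.25% of all genes were called in either direction. Lgr5, the crypt base stem cell receptor gene, read 47.8, 48.4 and 38.3 CPM in the Control replicates and 123.2, 139.5 and 172.9 CPM in the SOX17KO replicates, while the Wnt targets Ephb2 and Ephb3 were not called. Lef1 was near the floor in the Control replicates, at 0.40, 0.43 and 0.61 CPM. It read 14.2, 2.63 and 6.04 CPM in the SOX17KO replicates, highest in replicate 1, and its change without that library is not given here. Lef1 and Sp5 were not called without any one Control library (edgeR adjusted p from 0.0876 to 0.169), nor with limma-voom (0.0782 and 0.0763). Sp5 was also not called without SOX17KO replicate 2 (edgeR adjusted p = 0.0682). Of 12 genes of the differentiated surface 4 were tested, and Cdhr5 and Ceacam1 rose, beside the same 3.67% of all genes. The means for Ceacam1, an adhesion molecule gene, were 736 ± 48.7 and 1381 ± 259 CPM, and those for Cdhr5, a brush border cadherin gene, 3.28 ± 0.666 and 12.07 ± 3.57 CPM (SD, n = 3). The call of Ceacam1 was lost without any one Control library (edgeR adjusted p from 0.0821 to 0.101), and that of Cdhr5 without Control replicate 2 or 3 (0.0626 and 0.0662). DESeq2 and the fit without SOX17KO replicate 1, which called 10.7% and 22.2% of all genes, each also called 1 of the 4 lower. Without SOX17KO replicate 1 the gene called lower was Fabp2, at -1.18 (adjusted p = 0.0260 by edgeR). Whether these genes changed by more than the receptors and ligands was not tested.

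Genes with the most similar pattern were sought for Ephb2, Ephb3 and Efnb1 among 9326 genes with a mean log2 CPM above 3, by Pearson correlation of log2 CPM over the 6 libraries. The values are a description, since all genes share the division into groups and the place of SOX17KO replicate 1. For Ephb2 they were D19Wsu162e, Myadm and Adam9 (0.997, 0.994 and 0.993), and Epha2 stood at 0.954. For Ephb3 they included Safb2 and Zfp592 (0.979 and 0.974), and for Efnb1 Snx15, Fam134c and Stat2 (0.987, 0.982 and 0.981). Ephb2 and Ephb3 correlated at -0.24 with each other, and Ephb2 and Ephb4 at -0.19.

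**Figure D4:**
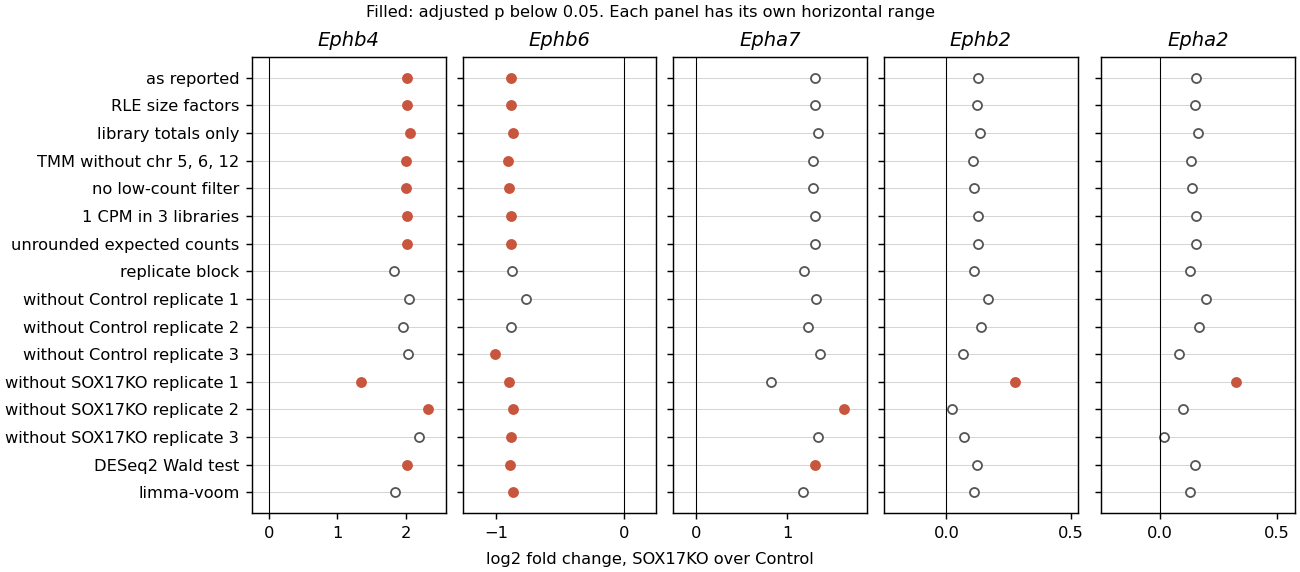
Log2 fold change of 5 genes as reported and in each of the 15 alternative analyses, filled where the adjusted p is below 0.05. Ephb4 stays above 0 and Ephb6 below 0 in all of them, with 9 and 12 alternatives calling them, and Ephb2 and Epha2 are called in 1 alternative each, the one without SOX17KO replicate 1.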

How the data were processed

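Per the labels' protocols, RNA was purified on columns, selected for poly(A) and built into directional libraries. The authors deposited expected counts per gene for 6 libraries; Bowtie, RSEM and mm9 are named in the submitters' processing notes, while for versions, annotation, strand setting and filters the sources used here give nothing. Counts were rounded and tested with edgeR 4.0.16 in R 4.3.3 (TMM factors, filterByExpr with a minimum count of 10 and a minimum total of 15, quasi-likelihood F test, genotype as the only term, Benjamini-Hochberg adjustment). SE is the absolute log2 fold change over the root of F. Correlations used log2 CPM with a prior count of 2. RefSeq (GRCm38.p6) gave gene order. Alternatives used DESeq2 1.42.0, limma 3.58.1, other factors and filters, unrounded values, a replicate block and each library left out. All 10 members were named, with up to 4 called members of each other list by smallest p, otherwise its most abundant member, and the 3 genes most alike to Ephb2, Ephb3 and Efnb1, of which 1 is not reported here. The members and lists were chosen with earlier results of these data known. The code of the fit was tried on simulated counts with the same dispersion for every gene and no library that stands apart. That trial does not measure how the fit performs on these libraries. Figures were drawn with matplotlib 3.10.9.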

Additional observations from a re-analysis of the deposited data

How the results depend on the processing

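The 834 genes called over the whole table became 1437 with DESeq2, 326 with the replicate block, and 192 to 2708 when 1 library was left out, lowest without Control replicate 2 and highest without SOX17KO replicate 1. Of the 10 Eph and ephrin-B genes 2 were called; the replicate block called 0, limma-voom 1, and leaving out 1 library 0 to 4. Same-numbered libraries did not deviate together (correlations of deviations of -0.33, -0.11 and -0.43 for numbers 1, 2 and 3), no library correlated best with its own number, and the labels do not say that a number marks anything shared. With the block the edgeR adjusted p was 0.0536 for Ephb4, 0.0612 for Ephb6, 0.0829 for Rac1, 0.0741 for Sp5, 0.0657 for Ceacam1, 0.126 for Cldn7, 0.192 for Epcam and 0.0601 for Ret. Over 150 values of single genes (10 genes in 15 alternatives), 127 kept their direction and side of the threshold, 9 lost and 4 gained the call, and 10 turned sign, all of Ephb3 or Efnb2, whose changes are near 0. Ephb3 was at -0.0062 with factors from genes not on chromosomes 5, 6 or 12, at -0.0033 with no low-count filter and between -0.051 and 0.091 with 1 library left out. Efnb2 was at 0.015 with library totals only and between -0.095 and 0.059 with 1 library left out. The cause was not tested. Other scalings (RLE, library totals, factors from genes off the 3 chromosomes) left the calls of Ephb4 and Ephb6 in place.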
